A study of Homo sapiens with 6 samples.

Results

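The subject is the set of Brpf2 peaks on chromosome 6 whose midpoints lie from 25 to 45 Mb in hg18, an interval that holds the large histone gene cluster and the major histocompatibility complex (MHC). The members were chosen by position and not by score or width, though earlier results of these data were known at the time. They number 258 of the 11874 Brpf2 peaks in the list and of the 629 on chromosome 6. They were divided by midpoint into the histone cluster (25900000 to 28000000, 55 peaks), the extended MHC (28000000 to 33500000, 101 peaks) and the stretch beyond the MHC (33500000 to 45000000, 100 peaks, also called the last stretch), which leaves 2 peaks between 25 Mb and the histone cluster. Chromatin was immunoprecipitated and sequenced from untreated RKO cells, an established line from a human colon carcinoma, under normal growth conditions. The Brpf2 library is 1 of 6 in the series, each with a different antibody, and the other 5 (ING2, ING5, H3K4me3, histone H3 and rabbit IgG) were not analysed here. The cells carry no introduced allele or agent that the labels name, and all libraries come from the same line.

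Brpf2, also called BRD1, is a scaffold protein with a bromodomain, PHD fingers and a PWWP domain that holds MYST-family histone acetyltransferases together with ING-family subunits. The ING subunits read methylated lysine 4 of histone H3, a mark of active promoters. The histone cluster holds most of the human genes for the replication-dependent histones, short genes without introns that are transcribed when DNA is replicated and are repeated in many near-identical copies. The MHC that follows it holds the class I and class II antigen presentation genes, with the gene-dense class III stretch of complement, cytokine and housekeeping genes between them.

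Only 1 Brpf2 library exists, without a replicate, so no test between samples could be made and no p-value is given. The 95% intervals below cover counting error within this library, and they treat peaks as independent, although neighbouring peaks are not. Read counts per peak are not listed, and the depth of the library is therefore unknown. The score is the value that the authors' peak caller gave each peak, on a scale not stated in the file, and it is used only to describe and rank peaks within this list. It may be a measure of significance and not of enrichment, so a high score is not read as strong binding. Scores pile up at 3100, called the ceiling here, and peaks at it cannot be ordered by score. How reads that match several places were treated is not given in the sources used here, which bears on the repeated histone, tRNA and HLA genes. No gene positions in hg18 were used, so no peak is assigned to a gene.

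Brpf2 peaks were crowded into this interval of chromosome 6. It held 41% of the chromosome's peaks in 11.7% of its length, taken up to the end of the last peak. The density was 12.9 peaks per Mb (exact Poisson 95% interval 11.4 to 14.6), against 2.46 (2.22 to 2.72) over the rest of chromosome 6, a ratio of 5.24 (4.45 to 6.16). Of 531 windows of 20 Mb placed every 5 Mb along all chromosomes, 4 held more than these 258 peaks, and the median window held 61. The windows overlap and are not separate stretches. Those 4 all lay on chromosome 19, with starts at 0, 5, 35 and 40 Mb. The largest count in a 20 Mb window of chromosome 6 that did not overlap the interval was 73. These densities are per Mb and not per gene. In RefSeq's GRCh38.p14 gene table, chromosome 6 has 1049 protein-coding genes. By gene order, 74 of them lie from H2AC1 to H2BC17, 182 from there to KIFC1 and 164 from there to CDC5L. These gene blocks stand for the 3 parts by order alone, and whether peak density follows gene density was not tested.

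Within the interval the histone cluster was the densest part. It carried 26.2 peaks per Mb (95% interval 19.7 to 34.1), the extended MHC 18.4 (15 to 22.3) and the stretch beyond the MHC 8.70 (7.08 to 10.6). The histone cluster thus had 10.6 times the density of the rest of chromosome 6 (7.87 to 14.2), the extended MHC 7.46 times (5.93 to 9.32) and the last stretch 3.53 times (2.80 to 4.42). The histone cluster and the extended MHC were close to each other, with a ratio of 1.43 whose interval, 1.01 to 2.0, reached almost to 1. Split by score, this ratio was 1.78 (0.938 to 3.30) below 200 and 1.33 (0.821 to 2.12) from 200 to below 1500. At 1500 or more it was 1.15 (0.399 to 2.94), and each of these intervals includes 1. Over all scores, both parts stood above the stretch beyond the MHC, by 3.01 times (2.13 to 4.23) and 2.11 times (1.59 to 2.81). Against all peaks outside the interval on every chromosome, at 3.80 peaks per Mb, the ratios were 6.89 for the histone cluster, 4.83 for the extended MHC and 2.29 for the last stretch. The histone figure rested in part on 1 window: without the 0.5 Mb from 26000001 to 26500000 its ratio to the rest of chromosome 6 was 7.62 (5.07 to 11.1). Without its own fullest window of 0.5 Mb the extended MHC had a ratio of 6.34 (4.90 to 8.11), and these intervals overlapped.

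The length covered by peaks followed the same order. Peaks covered 123 kb of the histone cluster, or 5.84% of its length, 4.77% of the extended MHC and 2.39% of the stretch beyond the MHC. Over the rest of chromosome 6 they covered 0.573%. The high density did not extend upstream of the histone cluster. The 0.9 Mb before it held 2 peaks (2.22 per Mb, 95% interval 0.269 to 8.03), of 592 bp with a score of 84.6 and of 2209 bp with a score of 374.

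**Figure D1:**
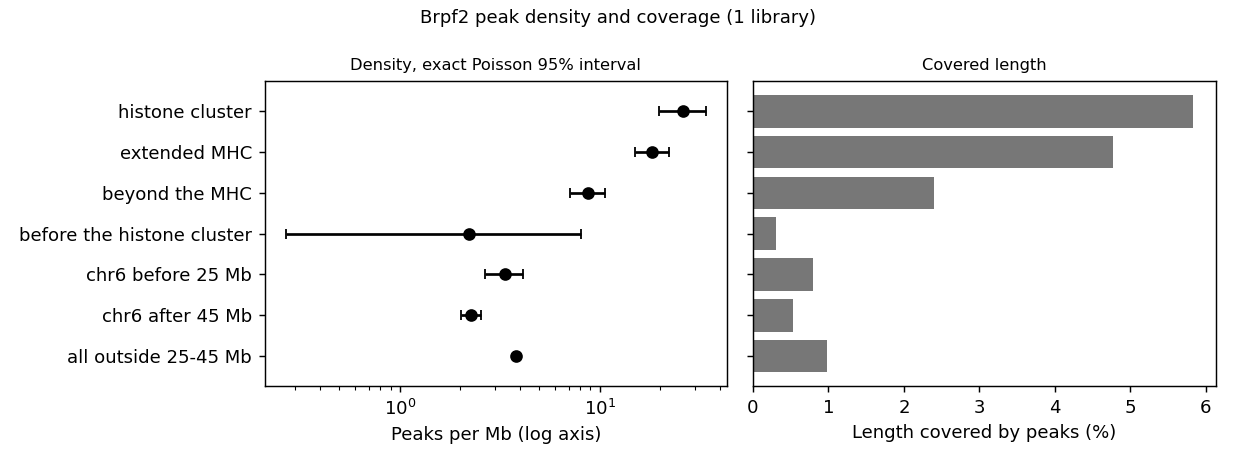
Brpf2 peak density on a log axis in peaks per Mb with exact Poisson 95% intervals (left) and the percentage of length covered by peaks (right), from 1 library. Rows are the parts of the interval, chromosome 6 before 25 Mb, chromosome 6 after 45 Mb and all peaks outside 25 to 45 Mb. The histone cluster (26.2 per Mb, 5.84% covered), the extended MHC (18.4, 4.77%) and the stretch beyond the MHC (8.70, 2.39%) lie above the chromosome on both sides of the interval (3.36 and 2.28 per Mb).

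Both ends of the interval fell in sparse sequence, while 1 inner border did not. The last peak before 25 Mb (score 1345) ended 115 kb before the border and the first after it (score 84.6) began 248 kb beyond it. At 45 Mb the nearest peaks were 535 kb before (score 120) and 452 kb after the border (score 845). The histone cluster and the extended MHC were separated by 184 kb without a peak, between peaks with scores of 2597 and 108. At the border between the extended MHC and the stretch beyond it, by contrast, peaks lay on both sides within 5.26 kb of the border, with scores of 502 and 432, so this division cuts through a peak-rich stretch. No peak spanned a border.

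Across windows of 0.5 Mb the peaks came in several crowded stretches. The 40 windows held from 0 to 25 peaks, with a median of 5, and 6 windows held none. The window of most peaks lay in the histone cluster, from 26000001 to 26500000, with 25 peaks. In the extended MHC it was 31500001 to 32000000, with 23 peaks, and beyond the MHC 43000001 to 43500000, with 14. On the grid of 1 Mb, the window from 26 to 27 Mb held 33 peaks, and 5 of 3003 windows in the list held more. The window from 31 to 32 Mb held 29 peaks, exceeded by 10 windows. On the rest of chromosome 6 the median window of 1 Mb held 2 peaks and none of the 151 windows held more than 10.

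**Figure D2:**
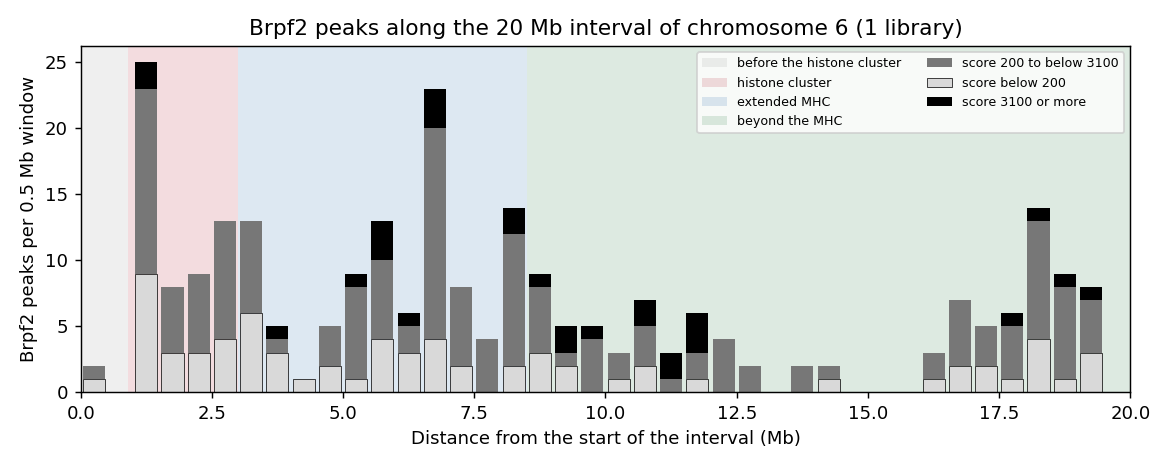
Number of Brpf2 peaks in each window of 0.5 Mb against the distance from the start of the interval in Mb, with peaks that scored below 200 in light grey, peaks at or above 3100 in black and the others in dark grey. Background shading marks the 4 parts. The tallest bars, 25 and 23 peaks, are in the histone cluster and the extended MHC, and the longest run of empty windows lies beyond the MHC.

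In the histone cluster the peaks lay in blocks. When the 55 peaks were split at every gap of 100 kb or more, a limit chosen after the gaps were seen, 6 blocks resulted, with 33, 2, 3, 6, 1 and 10 peaks in order along the chromosome. The limit matters: splitting at gaps over 50 kb gave 13 blocks, and at gaps over 150 kb it gave 2. The first block ran from 26070605 to 26768411 and its peaks covered 10.5% of its 698 kb. Both peaks of the cluster at the ceiling lay in it. Its densest portion ran from 26070605 to 26440456, where 24 peaks lay in 370 kb and covered 16.0% of it.

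The 2 ceiling peaks of the histone cluster lay in this portion. They ran from 26303231 to 26308582 (5352 bp, the only peak of the cluster at 5 kb or more) and from 26230986 to 26235290 (4305 bp). Each had many other peaks close by, with 14 and 13 within 100 kb. The next score, 2709, belonged to a peak that lay between them, from 26263918 to 26268469, which at 4552 bp was also the second widest of the cluster. The longest chain of peaks with gaps of 10 kb or less in the cluster, 8 peaks, ran from 26279403 to 26343798 and covered 31.0% of 64.4 kb. Their scores ran from 65.8 to 3100, so a peak at the ceiling stood among some of the lowest-scoring ones of the cluster.

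Of the other blocks, that of 3 peaks and the last held the high-scoring ones. The 3 peaks between 27206776 and 27223728 had scores of 1471, 1110 and 1905 and widths from 3143 to 3483 bp. They covered 59.0% of the 17 kb they spanned. The last block ran from 27832636 to 27971729 and held 10 peaks with a median score of 974. Within it 6 peaks in a chain from 27882350 to 27915909 covered 43.8% of 33.6 kb, and their scores lay between 296 and 1513. The third widest peak of the cluster, from 27967405 to 27971729 (4325 bp, score 2597), ended this block. Just before it, 91 bp away, lay a peak of 1206 bp with a score of 61.2, which made this the closest pair of the cluster.

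Between those blocks the peaks were sparse, with scores no higher than 394. Low scores were not confined to these peaks: 12 of the 33 peaks of the first block scored below 200. The longest gap of the cluster, 263 kb, ran from 26768412 to 27031755. The 6 peaks between 27326281 and 27555658 had scores from 68.2 to 362 in 229 kb. The narrowest peak of the cluster, from 27692737 to 27693527 (791 bp, score 60.1), stood alone, with no other peak within 100 kb. The next narrowest, from 26640954 to 26641773 (820 bp), lay inside the first block and had the lowest score of the cluster, 51.3.

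The histone genes themselves are listed in 3 groups. In RefSeq's GRCh38.p14 gene table, used here for gene order alone, the stretch from H2AC1 to H2BC17 holds 55 protein-coding histone genes among 74 protein-coding genes and 98 tRNA genes. With groups split wherever more than 20 other genes intervene, the first group runs from H2AC1 to H3C9P and has 34 protein-coding histone genes, the next from H2BC11 to H2AC12 has 5 and the last from H4C10P to H2BC17 has 16. Between the first group and the next lie 74 genes of all types, 9 of them protein-coding, and before the last group lie 76, with 5 protein-coding. The 6 butyrophilin genes, relatives of the immune costimulatory molecules, and 3 zinc finger genes also lie in this stretch. Builds differ, so the blocks of peaks described above were not matched to these groups of genes, and whether each gene has a peak was not examined. The number of blocks changed with the gap limit, so it is not set beside the number of gene groups.

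**Figure D3:**
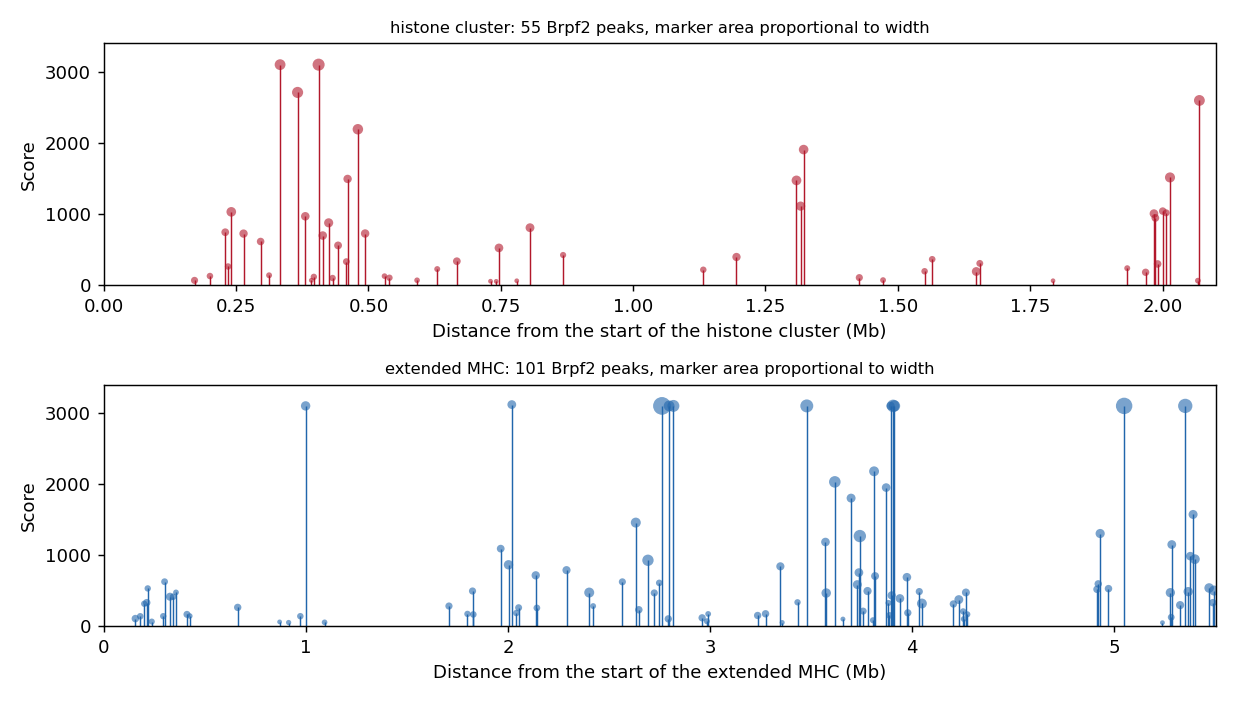
Each Brpf2 peak of the histone cluster (top) and of the extended MHC (bottom) as a line at its distance from the start of that part in Mb, with its score as height and marker area proportional to its width. In the histone cluster the 7 scores of 1500 or more fall near the start, in the trio with scores from 1110 to 1905 and near the end, while in the extended MHC the 11 peaks at the ceiling are spread over most of its length.

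The extended MHC combined crowded and bare stretches. Its 11 windows of 0.5 Mb held from 1 to 23 peaks, with a median of 8. The first, from 28000001 to 28500000, held 13 peaks, none at the ceiling, with a median score of 316 and a median width of 1583 bp. From there to 30 Mb there were only 11 peaks (7.33 per Mb, 95% interval 3.66 to 13.1), against 59 from 30000001 to 32500000 (23.6 per Mb, 18.0 to 30.4). One of those 11, from 28997227 to 29000476, nevertheless scored 3100, and the peaks nearest to it on either side scored 141 and 55.1.

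Crowding in the extended MHC was densest in the window that ends at 32 Mb. Its 23 peaks had a median score of 690 and a median width of 2744 bp, both above the medians of the whole extended MHC, and 3 were at the ceiling. These 3 all lay in a chain of 7 peaks from 31869390 to 31914386, which covered 47.5% of 45 kb. The ceiling peaks of the chain were 2581, 5801 and 4741 bp wide, and the other 4 scored between 153 and 1951. The closest pair of the extended MHC also lay in this window, from 31734520 to 31737313 and from 31737738 to 31743367, 424 bp apart, with scores of 755 and 1269. A second chain, from 32250959 to 32272835, held 4 peaks with scores from 101 to 475.

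After that second chain came the longest gap of the extended MHC, 640 kb from 32272836 to 32912902. A similar gap of 614 kb followed the peak from 29092049 to 29093226. Both are longer than any gap in the histone cluster. The 640 kb gap ended at 3 closely spaced peaks with scores of 520, 596 and 1304. In the last window of 0.5 Mb the density was again high, with 14 peaks, a median width of 3082.5 bp and a median score of 520.

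The widest peak of the whole interval lay in the extended MHC. It ran from 30755851 to 30767440 (11.6 kb). The next in this part ran from 33043020 to 33052967 (9948 bp), followed by that from 33346590 to 33354119 (7530 bp), and all of these scored 3100. The highest score in the extended MHC, 3118.5, belonged to a peak of only 2848 bp from 30017361 to 30020208, where 4 others lay within 100 kb. In the order given, these widest peaks had 6, 1 and 8 other peaks within 100 kb. The narrowest peaks, from 28869738 to 28870567 (830 bp) and from 33237179 to 33238018 (840 bp), scored 61.1 and 50.2. Around the widest peak, 3 of the 10 peaks between 30564824 and 30820881 were at the ceiling.

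The genes listed for the extended MHC differ in kind from those of the histone cluster. Between the last histone gene and KIFC1, a kinesin gene, the table lists 182 protein-coding genes, among them 19 HLA genes, 16 olfactory receptor genes and 11 zinc finger genes, together with 46 tRNA genes, and no histone gene. All of the olfactory receptor, zinc finger and tRNA genes of this stretch come before HLA-F, the first class I gene in this order. The table then gives 49 protein-coding genes from HLA-F to MICB, 61 between MICB and HLA-DRA, 18 from HLA-DRA to HLA-DPB1 (13 of them HLA genes) and 16 after that. The peaks were not placed in these subdivisions, since no positions in hg18 were used.

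The stretch beyond the MHC was less dense and less even. Up to 38 Mb it held 44 peaks (9.78 per Mb, 95% interval 7.10 to 13.1), from 38 to 41 Mb only 4 (1.33, 0.363 to 3.41) and from 41 to 45 Mb 52 (13 per Mb, 9.71 to 17), subdivisions chosen after the counts were seen. Its longest gap, 1797 kb from 39305890 to 41102597, is the longest of the whole interval. Of its 23 windows of 0.5 Mb, 5 held no peak. The gene table lists 164 protein-coding genes after KIFC1 up to CDC5L, a splicing factor gene, and no histone, HLA, tRNA or olfactory receptor gene among them.

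This last stretch, 11.5 of the 20 Mb, held the most ceiling peaks, 15 of the 28 in the interval. Of these 15, 11 lay before 38 Mb and 4 after 41 Mb. Per Mb there were 1.30 ceiling peaks here, against 2 in the extended MHC and 0.952 in the histone cluster. The highest score of the interval, 3160.57, belonged to the peak from 42820102 to 42823965 (3864 bp), which had 1 other peak within 100 kb. The widest peaks ran from 34311331 to 34321590 (10.3 kb), from 33694861 to 33704748 (9888 bp) and from 36202969 to 36209046 (6078 bp), all at 3100. The ceiling peaks from 35994449 to 35997481 and from 36517814 to 36520336 had no other peak within 100 kb. The narrowest peaks, from 43032055 to 43032749 (695 bp) and from 34339001 to 34339851 (851 bp), scored 53.2 and 157. The closest pair, 222 bp apart, joined a ceiling peak from 43246023 to 43249347 with a peak of 1136 bp that scored 58.6.

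Gaps between neighbouring peaks were shorter in the histone cluster and the extended MHC than beyond the MHC. The median gap was 14 kb in the histone cluster (exact 95% interval of the median 8.49 to 28.6 kb, 54 gaps). It was 21.2 kb in the extended MHC (13.1 to 27.9 kb, 100 gaps) and 55 kb beyond the MHC (41.6 to 79.7 kb, 99 gaps). On the rest of chromosome 6 it was 147 kb (112 to 170 kb). Over all peaks outside 25 to 45 Mb on every chromosome it was 71.3 kb (68.7 to 74 kb), a range that lay inside the interval of the last stretch. The intervals of the histone cluster and the extended MHC overlapped, and both lay below that of the last stretch. Without the fullest window of 0.5 Mb in each part, the median gap of the histone cluster was 31.8 kb (4.50 to 60.7 kb), that of the extended MHC 22.6 kb (15.4 to 37.2 kb) and that of the last stretch 72.9 kb (45.9 to 89.8 kb). The order of the first 2 then turned, and the interval of the histone cluster overlapped that of the last stretch. The middle range of gaps, from the lower to the upper quartile, was 4.65 to 36.5 kb in the histone cluster, 6.88 to 52.4 kb in the extended MHC and 20.4 to 105 kb in the last stretch.

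Very short gaps were common in the crowded parts. Gaps, close neighbours and chains come from the same peak positions as the density, so they are no separate evidence of crowding. Of all gaps in the list 13.0% were 10 kb or less, against 40.7% in the histone cluster (exact binomial 95% interval 27.6 to 55%), 32.0% in the extended MHC (23.0 to 42.1%) and 18.2% in the last stretch (11.1 to 27.2%). On the rest of chromosome 6 the share was 8.67% (6.01 to 12%). Gaps of 100 kb or more made up 40.8% of the list, 9.26% of the histone cluster, 12% of the extended MHC and 27.3% of the last stretch, but 58.3% of the rest of the chromosome. A neighbour within 10 kb was found for 31 of the 55 histone cluster peaks (56.4%), 52 of the 101 in the extended MHC (51.5%) and 34 of the 100 in the last stretch, where 23.0% of all peaks had one.

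Chains of at least 4 peaks with gaps of 10 kb or less were 4 in number in the interval. They held 14 of the 55 peaks of the histone cluster (25.5%) and 11 of the 101 of the extended MHC (10.9%), against 2.96% of all peaks in the list. Neither the last stretch nor the rest of chromosome 6 had such a chain, and their longest chains had 3 peaks. The longest chain in the interval had 8 peaks, and the longest outside it, over all chromosomes, had 9.

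**Figure D4:**
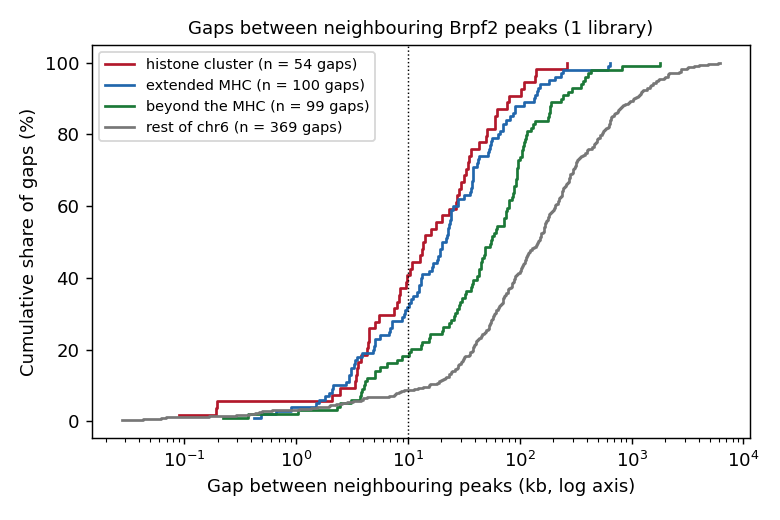
Cumulative percentage of gaps between neighbouring Brpf2 peaks against gap length in kb on a log axis, for the 3 parts of the interval and the rest of chromosome 6, with a dotted line at 10 kb. At that line the curves stand at 40.7% for the histone cluster, 32.0% for the extended MHC, 18.2% for the last stretch and 8.67% for the rest of the chromosome.

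Peaks in the crowded parts did not have higher scores. The median score was 362 in the histone cluster (95% interval 214 to 724), 469 in the extended MHC (328 to 520) and 540 beyond the MHC (401 to 943). It was 626 on the rest of chromosome 6 (514 to 767). The interval of the extended MHC overlapped that of the rest of the chromosome only narrowly, and those of the other parts overlapped it broadly. Over all peaks outside 25 to 45 Mb on every chromosome the median score was 619 (600 to 637). The 95% interval of the extended MHC lay wholly below that range, while those of the histone cluster and the last stretch included it. The lowest scores of the 3 parts were alike, at 51.3, 50.2 and 50.9.

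Low scores made up a larger share of the histone cluster than of the list, though by little more than counting error. Scores below 200 were 21.9% of the list, against 19 of the 55 peaks of the histone cluster (34.5%, exact 95% interval 22.2 to 48.6%), 28 of the 101 in the extended MHC (27.7%, 19.3 to 37.5%) and 24 of the 100 in the last stretch (16.0 to 33.6%). The share was 19.4% (15.5 to 23.8%) on the rest of chromosome 6. At the other end, 22.9% of the list scored 1500 or more, against 12.7% of the histone cluster (5.27 to 24.5%), 15.8% of the extended MHC (9.33 to 24.4%) and 27 of the 100 peaks in the last stretch (18.6 to 36.8%).

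Ceiling scores showed another order. They were 8.27% of the list, 2 of 55 peaks in the histone cluster (3.64%, 0.443 to 12.5%), 11 of 101 in the extended MHC (10.9%, 5.56 to 18.7%) and 15 of 100 in the last stretch (8.65 to 23.5%). The rest of chromosome 6 had 7.55% (5.07 to 10.7%). These intervals overlap one another, though that of the last stretch lay just above the share of the list. Of the peaks that scored 1500 or more, 11 of 16 in the extended MHC were at the ceiling, 15 of 27 in the last stretch and 2 of 7 in the histone cluster.

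The higher density than on the rest of chromosome 6 was seen for low and high scores alike, but the order of the parts was not resolved at high scores. Counting only scores below 200, the histone cluster had 18.9 times the density of the rest of chromosome 6 (95% interval 10.8 to 31.8), and counting only scores of 1500 or more it had 6.53 times (2.54 to 14.1). For the extended MHC these ratios were 10.7 (6.63 to 16.7) and 5.70 (3.10 to 9.85), and for the last stretch 4.37 (2.63 to 7.02) and 4.60 (2.85 to 7.21). In each part the intervals for low and high scores overlapped. For ceiling peaks alone the ratios were 5.13 in the histone cluster, with a wide interval from 0.592 to 20.3, 10.8 in the extended MHC (4.84 to 22.3) and 7.02 in the last stretch (3.49 to 13.6). For scores of 1500 or more the density of the histone cluster was 1.42 times that of the last stretch, with an interval from 0.522 to 3.34 that includes 1. The extended MHC had 1.24 times the density of the last stretch at these scores (0.624 to 2.38). For ceiling peaks the histone cluster had 0.730 times the density of the last stretch (0.081 to 3.14) and the extended MHC 1.53 times (0.637 to 3.57).

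Median widths differed little between the parts. The median was 2078 bp in the histone cluster (95% interval 1563 to 2569 bp), 2063 bp in the extended MHC (1961 to 2469 bp) and 2282 bp in the last stretch (2085 to 2609 bp), beside 2179 bp on the rest of chromosome 6 (2084 to 2286 bp). Peaks under 1500 bp were 16.8% of the list, 25.5% of the histone cluster (14.7 to 39%), 19.8% of the extended MHC (12.5 to 28.9%) and 12 of the 100 peaks in the last stretch (6.36 to 20%). They were 21.3% of the rest of chromosome 6 (17.2 to 25.8%). Peaks of 5 kb or more were 4.55% of the list and numbered 1 in the histone cluster, 7 in the extended MHC (6.93%, 2.83 to 13.8%) and 5 in the last stretch. On the rest of chromosome 6, over 7.54 times the length of the interval, there were 7, or 1.89% of its peaks (0.762 to 3.85%).

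Score and width moved together within each part, as they did in the whole list. Spearman's rho was 0.88 over the 55 peaks of the histone cluster, 0.80 over the 101 of the extended MHC and 0.80 over the 100 of the last stretch. Score and width share their caller and library, so rho is given as a description. At like widths between 1.5 and 5 kb, median scores in all 3 parts were lower than on the rest of chromosome 6, while below 1.5 kb that of the extended MHC was higher (121 against 108). Among peaks of 1.5 to 2 kb the median score was 193 in the histone cluster (13 peaks), 201 in the extended MHC (24) and 332 in the last stretch (23), beside 432 on the rest of the chromosome (72) and 322 over all peaks outside the interval. Among peaks of 2 to 3 kb the medians were 723, 586 and 688, beside 901 and 723. Among peaks of 3 to 5 kb the extended MHC had a median of 928 over 17 peaks, the histone cluster 1709 over 10, the last stretch 1831 over 27, the rest of the chromosome 1991 over 65 and all peaks outside the interval 1722. Against all peaks outside the interval the pattern did not hold throughout: the last stretch was higher at 1.5 to 2 and at 3 to 5 kb, and the histone cluster was almost level at 2 to 3 and at 3 to 5 kb. These differences were not tested.

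**Figure D5:**
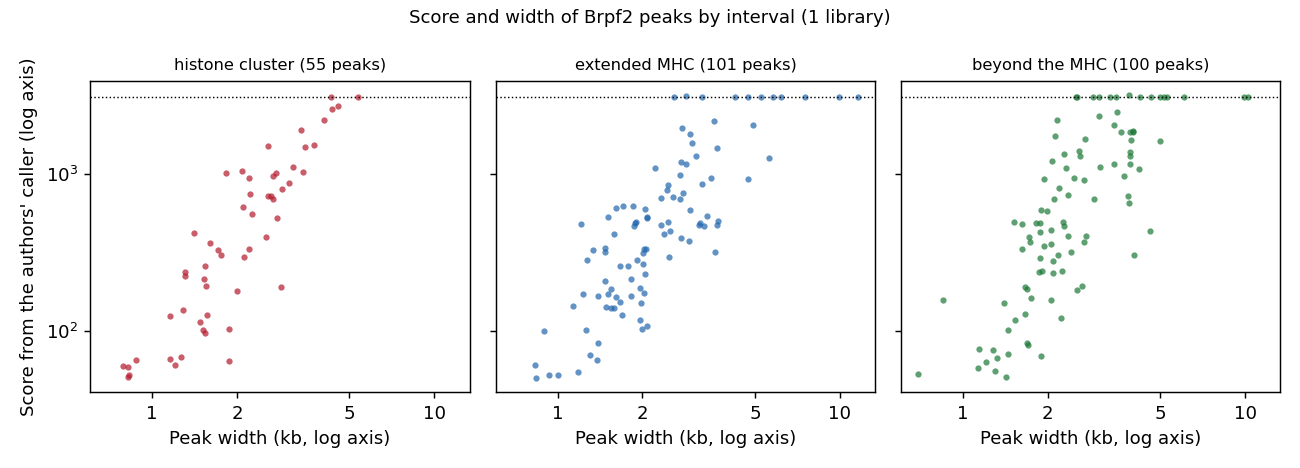
Score against width in kb, both on log axes, for each Brpf2 peak of the histone cluster, the extended MHC and the stretch beyond the MHC, with a dotted line at 3100. The histone cluster has 2 peaks on the line and none wider than 5352 bp, while the other parts have 11 and 15 peaks at or above it and reach 11.6 and 10.3 kb.

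Close peaks had the higher median score in the histone cluster and the extended MHC and the lower one elsewhere on the chromosome and in the list. In the histone cluster the 31 peaks with a neighbour within 10 kb had a median score of 696 (95% interval 260 to 1015) and the 24 others 230 (126 to 612). In the extended MHC they were 511 (332 to 706) and 337 (265 to 476). In the last stretch the order was the other way, with 363 (185 to 920) for close peaks and 710 (477 to 1292) for the others, as on the rest of chromosome 6 with 509 (368 to 1018) and 648 (519 to 800). In each of these 4 comparisons the intervals overlapped. Over all peaks outside the interval, close peaks also had the lower median, 492 (458 to 543) against 651 (628 to 674), and there the intervals did not overlap. The difference between parts was not tested.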

How the data were processed

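The submitters' processing notes name BWA, SAMtools and bedtools, with no versions, and the build hg18. MACS appears in the deposited peak names. Its version, settings and control were not found in the labels or the file. The authors deposited 1 score per peak, as their caller gave it. Positions are counted from 1. Peaks were placed by midpoint, gaps were measured edge to edge between neighbours of the same part, and the length of chromosome 6 was the end of its last peak (170763878). Density ratios have exact conditional binomial 95% intervals, shares exact Clopper-Pearson ones, and medians exact order-statistic ones. Python 3.11.15, pandas 2.3.3 and SciPy 1.17.1 were used, and the code was tested on simulated data. Thresholds of 200 and 1500 on score and of 1500 bp on width were set with the values in view. Named peaks were, in each part, the 3 highest scores (ties by width), 3 widest, 2 narrowest, longest gap, closest pair, fullest window of 0.5 Mb, and chains of 4 or more peaks. Other named peaks, blocks and stretches were chosen after their values were seen. The members and rules were chosen with earlier results of these data known. Gene order came from RefSeq's table of GRCh38.p14, whose coordinates were not used, and no sequence is shown because none of hg18 was used.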

Additional observations from a re-analysis of the deposited data

How the results depend on the processing

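In every alternative run for it, the density in each of the 3 parts stayed above that of its comparison. Of 69 alternative values, 49 stayed within the 95% interval of the reported one and 20 did not. With all chromosomes outside the interval as comparison the density ratios were 6.89 (histone cluster), 4.83 (extended MHC) and 2.29 (beyond the MHC). With chromosome 6 before 25 Mb they were 7.79, 5.47 and 2.59, and without windows of 1 Mb that hold no peak 7.18, 5.04 and 2.61. With peaks at or above the median score alone, the density ratio of the extended MHC was 4.98, median widths were 2971, 3046 and 3461 bp, median scores were 1034, 1381 and 1705, and the median gaps of the extended MHC and the last stretch were 57.7 and 131 kb. The median gap of the histone cluster in that subset was 11.8 kb, within its interval. Fewer peaks with higher scores follow from the construction of this subset. Without the fullest window of 0.5 Mb, an alternative added after seeing the data, the histone cluster had a density ratio of 7.62 and a median gap of 31.8 kb, above the 22.6 kb of the extended MHC, and the causes were not tested. Joining peaks within 1 kb, widening each part by 0.25 Mb and leaving out peaks at or above 3100 moved no value outside its interval. Requiring peaks to lie wholly inside a part changed nothing by construction, since 0 peaks spanned a border, and is not counted. No paired analysis was possible because the series has 1 library for each target. The depth is unknown, so peaks that a deeper library would add cannot be estimated.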
